A study of Mus musculus with 12 samples.

Results

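The comparison examined here is the PD-1 antibody given alone against vehicle, in 6 of the 12 tumors of the series, 3 tumors per arm. All 6 tumors grew in C57BL/6 mice from LLC1-shLkb1 cells, the mouse Lewis lung carcinoma line LLC1 in which a short hairpin RNA knocks down Lkb1 (gene symbol Stk11), so the vehicle tumors carry the knockdown too, and no tumor with intact Lkb1 was analysed here. The anti-PD-1 tumors came from mice injected repeatedly with the antibody RMP1-14, and the vehicle tumors from mice injected with the isotype antibody 2A3. The mice were 5 to 8 weeks old when purchased. Treatment began 7 days after the cells were injected, and tumors were taken 2 weeks later. The other 6 tumors, 3 given palbociclib (an inhibitor of the cell cycle kinases CDK4 and CDK6) and 3 given palbociclib with anti-PD-1, are used to set the effect of the antibody without palbociclib beside its effect with palbociclib, and, where said, to estimate the spread from all 12 tumors. The labels number the tumors within an arm and do not tie them to mice, so p-values measure the spread between these tumors.

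RNA was sequenced from whole tumors, and expression is given as FPKM, a gene's mapped fragments scaled to its length and to the size of the library, which allows levels of different genes to be compared. Of 34678 gene symbols, 11065 averaged 1 FPKM or more in the 6 tumors and were compared on the log2(FPKM + 0.1) scale. Differences are anti-PD-1 minus vehicle on that scale, which understates the change of genes near the pseudocount, and each has a standard error (SE) from limma. From the value that 1 fragment takes in each library, depth was estimated at 15400000 to 20300000 fragments over the 6 tumors.

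PD-1 is an inhibitory receptor that T cells display after activation. When its ligands PD-L1 and PD-L2, on cancer cells or myeloid cells, engage it, signaling from the T cell receptor is dampened, and antibodies to PD-1 block that contact. T cells that are released from this brake make interferon gamma and cytotoxic granules, and interferon gamma in turn raises antigen presentation genes, guanylate binding proteins and PD-L1 in the cells around them.

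Markers of the tissue were checked first. Vim, a mesenchymal intermediate filament, lay at 267 to 422 FPKM and Krt8, an epithelial keratin, at 84.1 to 276 FPKM in the 6 tumors, whereas the epithelial markers Epcam and Krt19 were under 0.3 FPKM throughout. The skin keratins Krt5 and Krt14 were listed at 0 in all 6 tumors, as were 10 of the 18 skin and hair follicle genes listed. Those 18 genes summed to 2.06 to 3.68 FPKM per tumor. Muscle genes summed to 119 FPKM in vehicle replicate 1 and 58.1 FPKM in anti-PD-1 replicate 1, against 32.3 to 39.0 FPKM in the other 4 tumors. The same pair, replicate 1 of both arms, stood apart in macrophage genes (summed to 1975 and 2244 FPKM, against 1033 to 1332 FPKM in the other 4) and in hypoxia genes (3577 and 3773 FPKM, against 5766 to 6668 FPKM), and correlations of FPKM between tumors (Spearman's rho over genes) ran from 0.923 to 0.986. Stk11, the target of the hairpin, lay at 9.28, 10.7 and 7.9 FPKM with anti-PD-1 and at 10.6, 11.5 and 9.74 FPKM with vehicle, a difference of -0.20 (SE 0.15) with overlapping arms. In whole tumors fewer cells of a type and less RNA per cell cannot be told apart.

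No gene passed the test between anti-PD-1 and vehicle. With limma's moderated test and Benjamini-Hochberg adjustment over 11065 genes, 0 genes (0.00%) had an adjusted p under 0.05 in either direction, and the smallest adjusted p was 0.834. At an unadjusted p under 0.05 there were 179 genes higher with anti-PD-1 (1.62%) and 298 lower (2.69%), and no other tool was run on these FPKM values. The 3 anti-PD-1 tumors all lay above the 3 vehicle tumors for 531 genes (4.80%) and all below them for 837 genes (7.56%). The median difference over all genes was -0.022, their SD was 0.30 and the median SE was 0.18, and 73 genes differed by more than 1 in either direction. Whether replicate numbers pair the tumors of the 2 arms is not known. With the replicate number as a block, 964 genes had an unadjusted p under 0.05, of which 596 were lower. In that fit 0 genes passed the adjusted threshold, and the smallest adjusted p was 0.563. The split between higher and lower depended on the scaling, since 37.5% of the genes with an unadjusted p under 0.05 were higher on the deposited FPKM, 26.7% after rescaling to TPM, 58.4% after median-ratio scaling and 56.2% after quantile normalization. The gene groups and genes below are therefore given as measured levels, beside the shares over all genes, and none of them passed the adjusted threshold.

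The receptor that the antibody binds and its ligands were near the limit of these libraries or alike in both arms. Pdcd1, which encodes PD-1, lay at 1.27, 0.254 and 0.727 FPKM with anti-PD-1 and at 1.2, 0.269 and 0.485 FPKM with vehicle, about 144 fragments over the 6 tumors, and so fell below the expression filter. Cd274, which encodes PD-L1, lay at 8.6, 9.05 and 8.96 FPKM (8.87 ± 0.24, SD, n = 3) with anti-PD-1 and at 7.95, 9.92 and 13.6 FPKM (10.5 ± 2.87, SD, n = 3) with vehicle. The arms overlapped for Cd274 and the difference was -0.21 (SE 0.20, adjusted p = 0.839). Pdcd1lg2, which encodes PD-L2, was also below the filter, at 0.186 to 0.349 FPKM with anti-PD-1 and 0.3 to 0.706 FPKM with vehicle.

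Most T cell genes were too low to compare. Of 25 genes of the T cell receptor complex and its signaling, 6 passed the filter, with a median difference of -0.01 that was 0.01 after median-ratio scaling and 0.04 after quantile normalization. Cd3e, a subunit of the receptor complex, lay at 0.728, 0.256 and 0.677 FPKM with anti-PD-1 and at 1.3, 0.226 and 0.412 FPKM with vehicle. Cd8a, the coreceptor of cytotoxic T cells, was at most 0.445 FPKM and Ifng, the gene for interferon gamma, at most 0.39 FPKM in any of the 6 tumors. Thy1 and Lcp2, the members with the highest level among those compared, overlapped between arms with differences of -0.03 (SE 0.26) and 0.00 (SE 0.27). Ptprc, which encodes the pan-leukocyte phosphatase CD45, was the 1 member (16.7%, against 7.56% of all genes) with anti-PD-1 tumors all below vehicle tumors. It lay at 1.35, 1.19 and 1.44 FPKM with anti-PD-1 and 2.11, 1.48 and 1.91 FPKM with vehicle, a difference of -0.43 (SE 0.21, unadjusted p = 0.0801). For the adhesion pair that holds T cells to their targets, Icam1 lay at 4.13, 1.4 and 1.91 FPKM with anti-PD-1 and 4.68, 2.68 and 2.06 FPKM with vehicle (difference -0.39, SE 0.44). Itgal, a subunit of LFA-1, by which T cells bind ICAM1, differed by 0.16 (SE 0.31) with overlapping arms.

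Among other checkpoint genes, 10 of 22 passed the filter with a median difference of 0.11, and 2 of these 10 had anti-PD-1 tumors all above vehicle tumors, against 4.80% of all genes. Tigit, an inhibitory receptor of T and NK cells, lay at 7.43, 7.83 and 7.45 FPKM with anti-PD-1 and 6.57, 4.58 and 5.68 FPKM with vehicle, a difference of 0.44 (SE 0.15, unadjusted p = 0.0238) that rests on about 639 fragments. Lgals9, which encodes galectin 9, a ligand of TIM-3, lay at 38.3, 23.2 and 24 FPKM with anti-PD-1 and 19.5, 21.4 and 18.8 FPKM with vehicle, a difference of 0.48 (SE 0.20). Pvr, a ligand of TIGIT, overlapped between arms (0.19, SE 0.22). Of 25 cytotoxic effector and NK receptor genes, 11 passed the filter with a median difference of 0.39, which was 0.05 without replicate 1 of both arms and -0.11 without vehicle replicate 1 alone. The members with the highest level were the granzymes of the Gzmd to Gzmg cluster, which are near-identical and may share reads. Gzmf ran from 43.9 to 131 FPKM with anti-PD-1 and from 11.7 to 206 FPKM with vehicle, so that the arms overlapped over a wide range (0.63, SE 0.98). Gzmd behaved alike, from 33.7 to 106 FPKM against 11.9 to 95.7 FPKM (0.72, SE 0.79). Klra4, an NK receptor of a family of close copies, was the 1 member (9.1%, against 4.80% of all genes) with anti-PD-1 tumors all above vehicle tumors, at 32.4, 18.7 and 22.7 FPKM against 17, 15.7 and 18.6 FPKM (0.49, SE 0.21, unadjusted p = 0.0496).

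Nearly all type I interferon-stimulated genes had a mean level above that of vehicle. Type I interferons bind a receptor found on nearly all nucleated cells, which leads to assembly of the transcription factor ISGF3, and this factor binds a short DNA motif, the interferon-stimulated response element. Its target genes encode antiviral enzymes, RNA sensors and regulators of the pathway. Of 46 listed genes 44 were in the files, 42 passed the filter, and 41 of these had a difference above 0 against 45.9% of all genes tested. The median difference was 0.35 against -0.022 over all genes, and 12 members (28.6%) were higher at an unadjusted p under 0.05, against 1.62% of all genes. In 13 members (31.0%, against 4.80% of all genes) the 3 anti-PD-1 tumors lay above the 3 vehicle tumors, and in 0 members below them. Per tumor, the median of the 42 genes relative to the vehicle mean was 0.52, 0.20 and 0.18 for anti-PD-1 and 0.00, -0.12 and 0.16 for vehicle, so anti-PD-1 replicate 1 was the furthest from vehicle and the other 2 were near the highest vehicle tumor. The unadjusted count depended on single tumors, with 5 members without anti-PD-1 replicate 1, 5 without anti-PD-1 replicate 2, 7 without vehicle replicate 1, 4 without vehicle replicate 2, 2 without replicate 1 of both arms, and 5 with the spread taken from all 12 tumors. The median difference was 0.18 without anti-PD-1 replicate 1 and 0.22 without replicate 1 of both arms.

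**Figure D1:**
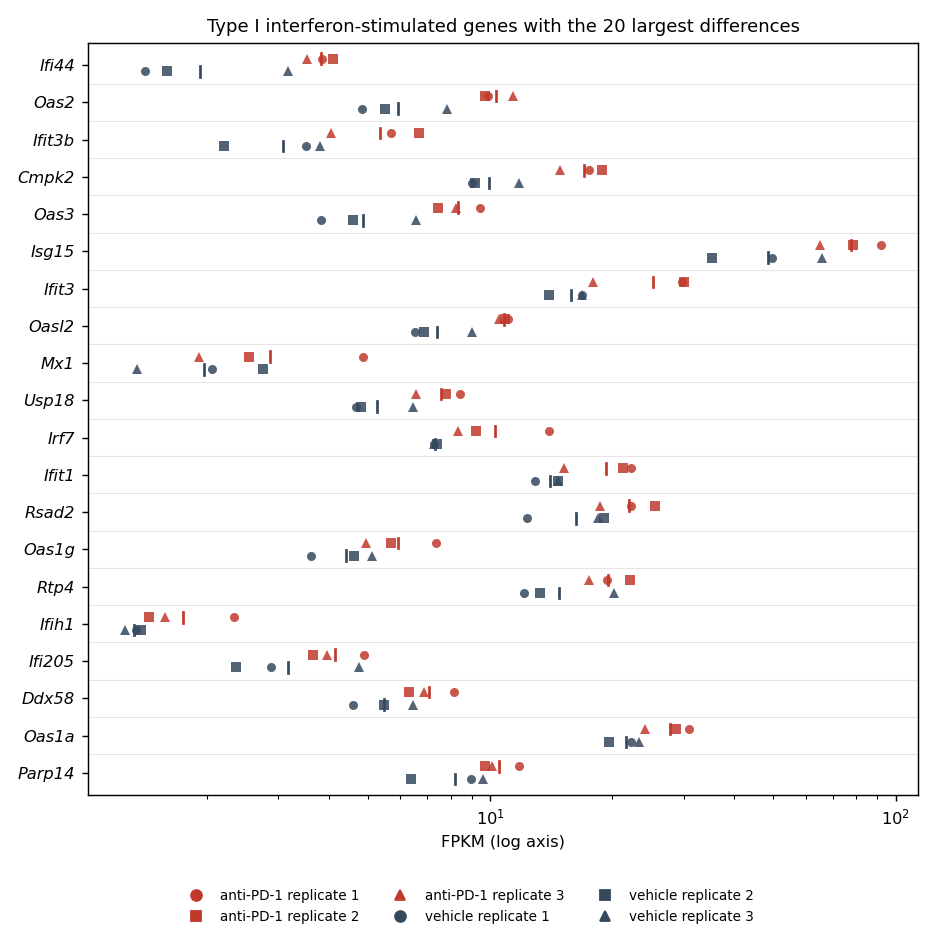
FPKM on a log axis of the 20 type I interferon-stimulated genes with the largest differences, 1 row per gene, with the 3 anti-PD-1 tumors in red, the 3 vehicle tumors in blue-gray, a symbol for each replicate number and a tick at the geometric mean of each arm. The red tick lies to the right of the blue-gray tick in every row, and the symbols of the 2 arms interleave in some rows, such as Isg15, where anti-PD-1 at 65 FPKM lies below vehicle at 65.8 FPKM.

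The motif of ISGF3 was looked up in the promoters. The list was made of known interferon-stimulated genes, so the share with a match describes the list and not these tumors. RefSeq promoter windows on GRCm38.p6, 250 bases before to 50 bases after the start site, were at hand for 30 of the 42 genes. With the motif taken as GAAA, any 2 bases and GAAA again, read on both strands and overlapping matches allowed, 16 of the 30 genes (53.3%) held a match in at least 1 window, against 1079 of 27025 genes with a window (3.99%) and 1131 of 32851 windows (3.44%). Below are the 200 bases before the start site for 4 members, printed 5′ to 3′ on the strand of the gene with matches in capitals, to show the spread from several matches to none. A match is a description of the letters and not of binding.
Isg15, chr4:156200819-156201018, minus strand, 3 overlapping matches of which the first begins 78 bases before the start site: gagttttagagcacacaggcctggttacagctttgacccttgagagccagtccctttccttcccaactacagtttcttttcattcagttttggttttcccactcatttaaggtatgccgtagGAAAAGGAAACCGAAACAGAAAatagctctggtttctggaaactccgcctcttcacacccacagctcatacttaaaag
Ifit3, chr19:34583329-34583528, plus strand, 2 matches read on the opposite strand, the first 156 bases before the start site: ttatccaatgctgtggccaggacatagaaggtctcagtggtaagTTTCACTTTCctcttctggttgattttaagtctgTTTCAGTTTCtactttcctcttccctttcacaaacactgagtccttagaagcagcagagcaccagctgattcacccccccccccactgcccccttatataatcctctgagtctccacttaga
Oas3, chr5:120777660-120777859, minus strand, 1 match 75 bases before the start site: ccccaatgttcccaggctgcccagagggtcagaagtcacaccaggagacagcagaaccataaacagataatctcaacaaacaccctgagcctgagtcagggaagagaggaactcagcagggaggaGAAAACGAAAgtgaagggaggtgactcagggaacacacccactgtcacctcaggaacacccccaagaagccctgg
Cmpk2, chr12:26469015-26469214, plus strand, 0 matches: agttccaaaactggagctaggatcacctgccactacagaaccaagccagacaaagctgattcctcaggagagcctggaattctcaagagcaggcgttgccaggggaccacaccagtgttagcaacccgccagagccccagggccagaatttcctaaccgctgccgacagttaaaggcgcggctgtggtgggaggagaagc

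Of the members that act on RNA or nucleotides, Cmpk2, a mitochondrial nucleotide kinase, lay at 17.5, 18.9 and 14.9 FPKM with anti-PD-1 and 9.04, 9.17 and 11.8 FPKM with vehicle. Its arms did not overlap, and the difference of 0.77 (SE 0.15, unadjusted p = 0.00152) had the smallest p among the members described. Oas2, which makes the oligoadenylates that switch on RNase L, lay at 9.89, 9.74 and 11.4 FPKM against 4.83, 5.5 and 7.81 FPKM (0.79, SE 0.19, unadjusted p = 0.00427). Oas3, a longer enzyme of the same family, lay at 9.43, 7.44 and 8.23 FPKM against 3.82, 4.6 and 6.56 FPKM (0.76, SE 0.21, unadjusted p = 0.0085). In both genes each anti-PD-1 tumor lay above each vehicle tumor, and vehicle replicate 3 was the nearest to the treated arm. Oasl2, a related protein, lay at 11.1, 10.9 and 10.5 FPKM against 6.54, 6.88 and 9.02 FPKM (0.55, SE 0.15, unadjusted p = 0.00753). Oas1a, one of a cluster of close copies, differed by 0.36 (SE 0.14, unadjusted p = 0.0356).

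Ifi44, an interferon-induced GTP-binding protein, had the largest difference of the list, 0.95 (SE 0.30, unadjusted p = 0.0145), from 3.86, 4.09 and 3.54 FPKM with anti-PD-1 and 1.41, 1.6 and 3.17 FPKM with vehicle. Of the Ifit proteins, which bind foreign RNA, Ifit1 lay at 22.3, 21.3 and 15.2 FPKM against 12.9, 14.7 and 14.7 FPKM (0.46, SE 0.17, unadjusted p = 0.0304). Ifit3 lay at 29.7, 30.1 and 17.9 FPKM against 16.9, 14 and 16.9 FPKM (0.66, SE 0.22, unadjusted p = 0.0191). The arms of both were separated by a narrow gap, since anti-PD-1 replicate 3 lay just above the highest vehicle tumor. Ifit3b, nearly identical in sequence to Ifit3 and so not cleanly separable from it, differed by 0.78 (SE 0.26, unadjusted p = 0.0213).

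Isg15, a ubiquitin-like modifier, lay at 91.9, 78.7 and 65 FPKM with anti-PD-1 and 49.5, 35.2 and 65.8 FPKM with vehicle. The lowest anti-PD-1 tumor and the highest vehicle tumor thus met at the same level, and the difference was 0.68 (SE 0.24, unadjusted p = 0.0274). Usp18, the protease that removes ISG15 from proteins and limits the receptor, differed by 0.52 (SE 0.17, unadjusted p = 0.0194) with arms that did not overlap. Irf7, the factor that amplifies interferon production, lay at 14, 9.25 and 8.34 FPKM against 7.29, 7.39 and 7.26 FPKM (0.48, SE 0.20, unadjusted p = 0.0443). The member with the highest level, Bst2 or tetherin, which holds budding virus at the cell surface, lay at 332, 336 and 327 FPKM against 363, 258 and 352 FPKM and differed by 0.05 (SE 0.16). The 1 member below 0 was Ifi27l2a (-0.26, SE 0.28).

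Genes downstream of interferon gamma lay on both sides of vehicle, 12 above it and 12 below. Over these 24 of 29 genes of interferon gamma signaling, with the guanylate binding proteins and immunity-related GTPases, the median difference was 0.00, and after rescaling to TPM it was -0.03 and after quantile normalization 0.05. Gbp2, an interferon-induced GTPase, lay at 35, 26.5 and 24.1 FPKM with anti-PD-1 and 43.8, 17.9 and 31.1 FPKM with vehicle (-0.04, SE 0.32). Socs3, a feedback inhibitor of cytokine receptors, differed by -0.13 (SE 0.35). Cxcl10, the chemokine that draws CXCR3-bearing T cells and answers to both kinds of interferon, was the 1 member (4.2%, against 4.80% of all genes) with anti-PD-1 tumors all above vehicle tumors, at 16.2, 16.8 and 10.2 FPKM against 9.23, 7.87 and 9.87 FPKM (0.64, SE 0.21, unadjusted p = 0.0187).

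No gene of antigen presentation had an unadjusted p under 0.05. All 22 genes of MHC class I and peptide loading passed the filter, with a median difference of -0.11, 6 above 0 and 16 below. B2m, the shared light chain of class I molecules, lay at 946, 749 and 866 FPKM against 827 to 1255 FPKM (-0.25, SE 0.19), and H2-D1, a class I heavy chain with close copies, at 373 to 443 FPKM against 422 to 492 FPKM (-0.11, SE 0.14). Calr, the chaperone of class I assembly, was the 1 member (4.5%, against 4.80% of all genes) with anti-PD-1 tumors all above vehicle tumors (0.21, SE 0.13). Of 12 genes of the MHC class II pathway, 9 passed the filter with a median of -0.37, and this median was 0.24 without vehicle replicate 1 and -0.93 without anti-PD-1 replicate 1. Lgmn and Ctss, lysosomal proteases of the pathway, differed by 0.17 (SE 0.33) and -0.31 (SE 0.57). Cd74, the invariant chain, lay at 29.5, 9.64 and 9.92 FPKM against 110, 15.1 and 8.86 FPKM, so that replicate 1 of each arm was the highest and the arms overlapped (-0.79, SE 0.92).

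Circadian clock genes lay mostly below vehicle. In the clock, CLOCK and BMAL1 (gene Arntl) activate genes through the E-box, the PER and CRY proteins they induce repress them, and the nuclear receptors REV-ERB alpha and beta (Nr1d1 and Nr1d2) shut off Arntl in a second loop. PAR-bZIP factors such as TEF carry the rhythm to output genes. Of 18 listed genes 17 were in the files and 13 passed the filter, of which 12 had a difference below 0. The median was -0.61 against -0.022 over all genes, 6 members (46.2%, against 2.69% of all genes) were lower at an unadjusted p under 0.05, and in 5 members (38.5%, against 7.56%) the arms did not overlap. Relative to the vehicle mean, the median of the 13 genes was -1.02, -0.41 and -0.49 in the anti-PD-1 tumors and -0.32, 0.47 and -0.10 in the vehicle tumors. A lower level was not particular to the antibody. The same median was -0.27, -0.59 and -0.91 in the palbociclib tumors, which had no anti-PD-1, and -1.22, -0.76 and -1.11 in the combination tumors. The unadjusted count was 3 without anti-PD-1 replicate 1, 3 without anti-PD-1 replicate 3 and 9 with the replicate block. In these fits 251, 439 and 964 of all genes had an unadjusted p under 0.05 in either direction, against 477 as reported. The median was -0.28 without vehicle replicate 2, the tumor with the highest clock gene levels. Without replicate 1 of both arms, 7 members were lower and the median was -0.64. Summed levels of the listed clock genes overlapped, at 60.3, 92.8 and 89 FPKM with anti-PD-1 and 87.1, 205 and 103 FPKM with vehicle. The time of day at which each tumor was taken is not given, so its part in these levels was not tested.

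**Figure D2:**
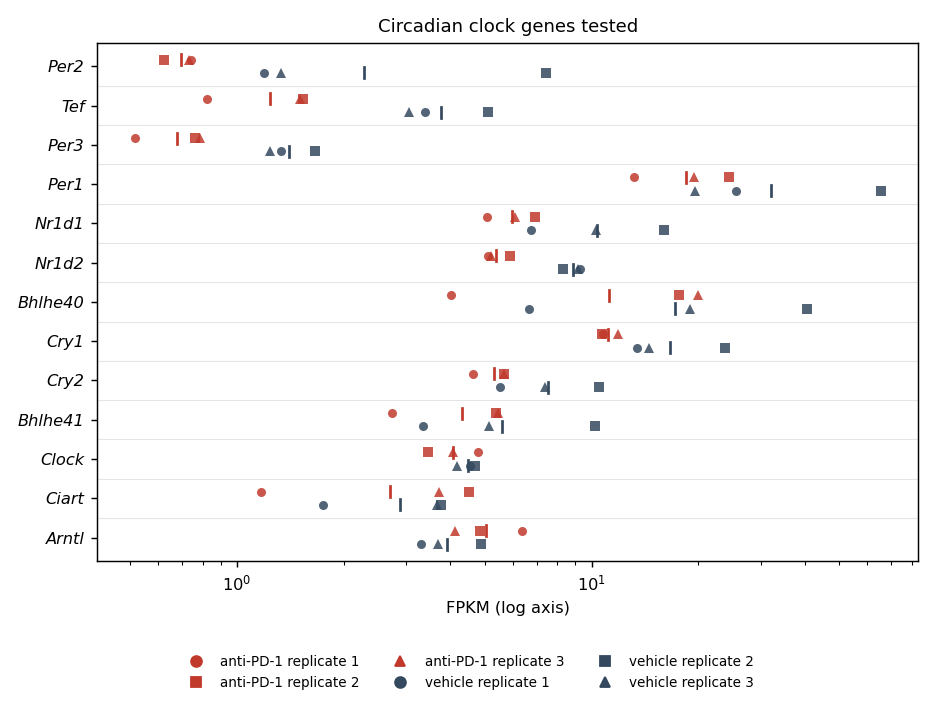
FPKM on a log axis of the 13 clock genes that passed the filter, 1 row per gene, with anti-PD-1 tumors in red, vehicle tumors in blue-gray, a symbol for each replicate number and a tick at the geometric mean of each arm. The red symbols lie to the left of all blue-gray ones for Per2, Tef, Per3, Nr1d2 and Cry1, and vehicle replicate 2 (squares) is the rightmost symbol in most rows.

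E-boxes were looked up in the same way, as the letters CACGTG, which read the same on both strands. Of 11 clock genes with a promoter window, 5 (45.5%) held a match, against 2187 of 27025 genes (8.09%) and 2349 of 32851 windows (7.15%). This share, too, describes the list of known clock genes and not these tumors. Nr1d2 and Per3, whose arms did not overlap either, held 0 matches in their windows, and no window was at hand for Per2. The 200 bases before the start site are printed for Tef and Cry1, an output factor and a repressor whose arms did not overlap, with the E-box in capitals.
Tef, chr15:81802473-81802672, plus strand, the first of 2 windows, 1 match 127 bases before the start site: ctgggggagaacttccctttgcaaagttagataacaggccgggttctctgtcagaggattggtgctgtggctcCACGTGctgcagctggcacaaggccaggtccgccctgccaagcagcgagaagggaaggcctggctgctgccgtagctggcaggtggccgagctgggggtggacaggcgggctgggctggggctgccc
Cry1, chr10:85185055-85185254, minus strand, 1 match 60 bases before the start site: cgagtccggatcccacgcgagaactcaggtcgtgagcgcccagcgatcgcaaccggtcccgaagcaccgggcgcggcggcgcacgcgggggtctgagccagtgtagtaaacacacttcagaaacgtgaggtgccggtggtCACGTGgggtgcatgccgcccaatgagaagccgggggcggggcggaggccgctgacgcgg

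Nr1d2 lay at 5.09, 5.9 and 5.21 FPKM with anti-PD-1 and at 9.29, 8.29 and 9.13 FPKM with vehicle. The arms were wide apart, and the difference of -0.71 (SE 0.12, unadjusted p = 0.000564) kept an unadjusted p under 0.05 in each of the 18 alternatives. Its relative Nr1d1 lay at 5.07, 6.91 and 6.1 FPKM against 6.73, 16 and 10.3 FPKM, with arms that met (-0.78, SE 0.30, unadjusted p = 0.0355). Tef lay at 0.823, 1.53 and 1.5 FPKM against 3.4, 5.1 and 3.06 FPKM, a difference of -1.53 (SE 0.30, unadjusted p = 0.0013) with every anti-PD-1 tumor below every vehicle tumor.

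Of the repressors, Per2 lay at 0.743, 0.622 and 0.731 FPKM with anti-PD-1 and 1.19, 7.44 and 1.33 FPKM with vehicle. The difference of -1.59 (SE 0.65, unadjusted p = 0.0436) was -0.77 without vehicle replicate 2, the highest tumor by far, and the arms did not overlap. Per3 lay at 0.514, 0.762 and 0.786 FPKM against 1.33, 1.66 and 1.24 FPKM (-0.95, SE 0.27, unadjusted p = 0.0095), and Cry1 at 10.8, 10.7 and 11.9 FPKM against 13.4, 23.8 and 14.5 FPKM (-0.58, SE 0.22, unadjusted p = 0.0329). The 2 members with the highest levels overlapped between arms, Per1 at 13.2 to 24.4 FPKM against 19.6 to 65.6 FPKM (-0.79, SE 0.45) and Bhlhe40, a further E-box repressor, at 4.01 to 20 FPKM against 6.65 to 40.6 FPKM (-0.61, SE 0.79). Of the activators, Arntl, the 1 member above 0, lay at 6.35, 4.83 and 4.13 FPKM against 3.31, 4.89 and 3.68 FPKM (0.35, SE 0.21), and Clock differed by -0.13 (SE 0.16).

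Most cell cycle genes had a difference above 0, and none passed the adjusted threshold. All 30 genes of S phase and DNA replication passed the filter, 28 had a difference above 0, and the median was 0.24. Relative to the vehicle mean, their median was 0.55, 0.21 and 0.04 in the anti-PD-1 tumors and 0.18, -0.19 and -0.01 in the vehicle tumors. It was also above vehicle in the palbociclib tumors (0.30, 0.38 and 0.34), which had no anti-PD-1, and in the combination tumors (0.44, 0.45 and 0.44). At an unadjusted p under 0.05 there were 3 of the 30 members higher, against 1.62% of all genes, and 6, against 4.80% of all genes, had arms that did not overlap. The unadjusted count was 1 without anti-PD-1 replicate 1 or without vehicle replicate 2, 8 with the replicate block and 9 with all 12 tumors. The count over all genes, both directions together, moved too, from 477 to 964 with the block and 1085 with all 12 tumors. It was 251 without anti-PD-1 replicate 1 and 237 without vehicle replicate 2. Slbp, which binds the stem loop of histone mRNA, lay at 9.11, 10.3 and 9.8 FPKM with anti-PD-1 and 6.95, 4.84 and 6.42 FPKM with vehicle (0.69, SE 0.16, unadjusted p = 0.00342). Mcm5, a subunit of the replicative helicase, lay at 94.9, 73.6 and 67.5 FPKM against 64.8, 48.4 and 56 FPKM (0.47, SE 0.17, unadjusted p = 0.0293), and Cdc6, which loads that helicase, at 7.03, 4.69 and 4.17 FPKM against 3.85, 2.31 and 3.2 FPKM (0.74, SE 0.26, unadjusted p = 0.0236). Rrm2, a subunit of ribonucleotide reductase and among the highest of the list, lay at 74.8 to 79.4 FPKM against 62.2 to 86.1 FPKM and differed by 0.04 (SE 0.15), or -0.03 after quantile normalization.

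In 26 genes of mitosis the median was 0.21, and it was 0.03 without anti-PD-1 replicate 1. Ccnb1, the cyclin of mitotic entry, was the 1 member (3.8%, against 1.62% of all genes) higher at an unadjusted p under 0.05, at 10.6, 7.45 and 6.54 FPKM against 4.24, 6.26 and 3.17 FPKM (0.86, SE 0.28, unadjusted p = 0.0182). Top2a and Cdc20 overlapped between arms (0.21, SE 0.16, and 0.40, SE 0.28).

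Myeloid genes varied widely between tumors of the same arm. Of 30 macrophage and monocyte genes 27 passed the filter, with a median of -0.21 that ran from -0.44 to 0.25 when 1 tumor was left out. Lyz2, the lysozyme of macrophages, lay at 858, 235 and 223 FPKM with anti-PD-1 and 962, 383 and 198 FPKM with vehicle, and Adgre1, the F4/80 antigen, at 28.8, 5.92 and 7.84 FPKM and 30.6, 12.1 and 5.8 FPKM. In both genes replicate 1 was the highest tumor of each arm. Spp1, or osteopontin, overlapped between arms (0.04, SE 0.39), with a difference of -0.01 after quantile normalization. In 2 members (7.4%, against 4.80% of all genes) the anti-PD-1 tumors all lay above the vehicle tumors. Ly6c2, a marker of inflammatory monocytes with a near copy in Ly6c1, lay at 4.01, 1.28 and 1.51 FPKM against 1.04, 0.431 and 1.01 FPKM (1.26, SE 0.50, unadjusted p = 0.0385). Chil3, a chitinase-like protein of activated myeloid cells that also has close relatives, lay at 5.74, 2.51 and 2.73 FPKM against 1.46, 1.28 and 2.4 FPKM (1.0, SE 0.37, unadjusted p = 0.0291).

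Neutrophil genes and ligands of CXCR2 had a median of 0.51 over 18 of 24 genes, with 16 above 0, and this median ran from -0.12 to 1.62 when 1 tumor was left out. Their summed level was 116, 454 and 435 FPKM with anti-PD-1 and 85, 131 and 824 FPKM with vehicle, so that vehicle replicate 3 was the highest of all and replicate 1 of both arms the lowest of its arm. S100a9, a calcium-binding protein abundant in neutrophils, lay at 33.3, 197 and 168 FPKM against 21.8, 42.4 and 370 FPKM (0.56, SE 1.11). Cxcl1, a neutrophil chemoattractant, lay at 8.01, 54 and 49.2 FPKM against 14.9, 38.7 and 85.9 FPKM (-0.40, SE 0.87). Ppbp, the platelet chemokine CXCL7, was the 1 member (5.6%, against 4.80% of all genes) with anti-PD-1 tumors all above vehicle tumors, at 25.2, 24.7 and 45.1 FPKM against 8.47, 5.33 and 21.6 FPKM, a difference of 1.60 (SE 0.50, unadjusted p = 0.0146).

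Matrix genes lay below vehicle in part. Of 36 collagen and matrix genes 33 passed the filter, 23 had a difference below 0, and the median was -0.24, which was -0.01 without replicate 1 of both arms. At an unadjusted p under 0.05 there were 4 members lower (12.1%, against 2.69% of all genes), 1 without anti-PD-1 replicate 1 or without vehicle replicate 1, and 8 with the replicate block. Col3a1, a fibrillar collagen, lay at 114, 233 and 235 FPKM with anti-PD-1 and 331, 276 and 255 FPKM with vehicle (-0.64, SE 0.29, unadjusted p = 0.0668). Fbn1, which encodes fibrillin 1 of the microfibrils, lay at 4.2, 4.53 and 3.97 FPKM against 9.77, 6.11 and 6.03 FPKM (-0.74, SE 0.20, unadjusted p = 0.00852). In both the arms did not overlap and vehicle replicate 1 was the highest tumor. Col5a1, which starts collagen fibrils, lay at 20.4, 32.2 and 27.6 FPKM against 46.8, 42.1 and 32.9 FPKM (-0.61, SE 0.21, unadjusted p = 0.0217), and Mmp14, a collagenase of the cell membrane, differed by -0.29 (SE 0.14) without overlap. The small proteoglycan Dcn (-0.88, SE 0.34, unadjusted p = 0.0351), Col12a1 (-0.53, SE 0.22, unadjusted p = 0.0486) and Col6a1 (-0.60, SE 0.27) were lower with overlapping arms.

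**Figure D3:**
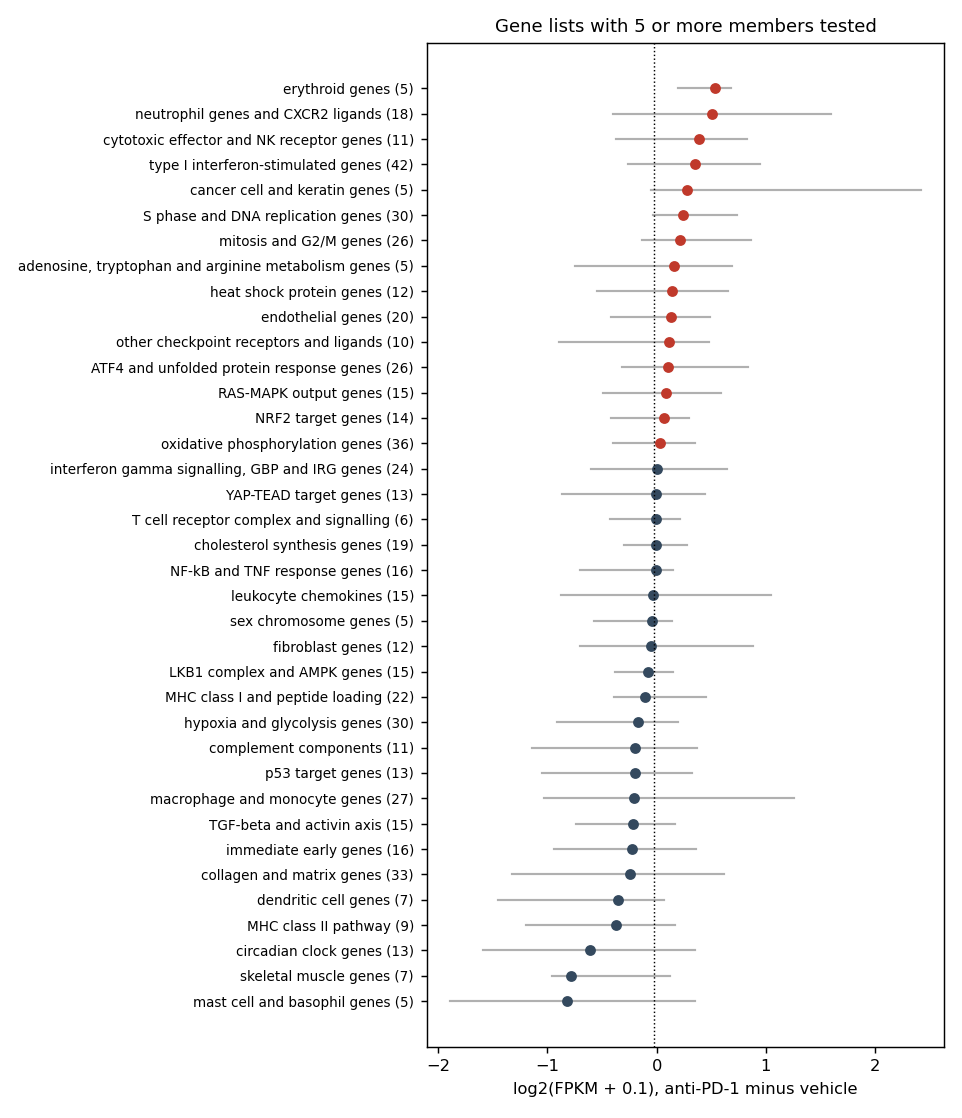
Median (point) and range over members (line) of the log2(FPKM + 0.1) difference, anti-PD-1 minus vehicle, for every gene list with at least 5 members compared, whose number is in brackets, with points in red above 0 and blue-gray otherwise and a dotted line at the median of all genes, -0.022. Interferon-stimulated genes (0.35) and clock genes (-0.61) lie on opposite sides, and mast cell genes (-0.82) and skeletal muscle genes (-0.78), both with few members, lie furthest below.

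Of other programs, hypoxia and glycolysis genes had a median of -0.17 over 30 genes and 0 members with an unadjusted p under 0.05, and that median was 0.14 without anti-PD-1 replicate 1. Immediate early genes had a median of -0.23 over 16 genes. Fos lay at 1.94, 3.17 and 3.26 FPKM with anti-PD-1 and 4.17, 4.4 and 5.38 FPKM with vehicle (-0.74, SE 0.23, unadjusted p = 0.0134) without overlap, whereas Jun (-0.27, SE 0.26) and Ier3 (-0.28, SE 0.70) overlapped. Genes that report RAS-MAPK output had a median of 0.09 over 15 genes. Dusp5, a phosphatase that ERK induces against itself, lay at 15.8, 11.3 and 14.3 FPKM against 8.67, 7.92 and 10.7 FPKM (0.59, SE 0.17, unadjusted p = 0.011), and the receptor kinase Epha2 at 42, 33.3 and 32.6 FPKM against 30.2, 21.1 and 28.6 FPKM (0.44, SE 0.18, unadjusted p = 0.0421). Fosl1 (0.40, SE 0.24) and Myc (0.53, SE 0.32) overlapped between arms. Oxidative phosphorylation (0.03 over 36 genes), cholesterol synthesis (-0.01 over 19 genes), NRF2 target genes (0.07 over 14 genes) and the LKB1 complex with AMPK (-0.08 over 15 genes) had medians near that of all genes.

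Single genes were then ranked by size among those with arms that did not overlap. Lgals3bp, a secreted galectin ligand of the scavenger receptor cysteine-rich family (chr11:118392751-118402092 on GRCm38), had the smallest unadjusted p of the 11065 genes. It lay at 48.4, 43.5 and 46.6 FPKM (46.1 ± 2.44, SD, n = 3) with anti-PD-1 and at 19.3, 22.7 and 25.7 FPKM (22.6 ± 3.24, SD, n = 3) with vehicle. The difference was 1.04 (SE 0.14, unadjusted p = 0.000121, adjusted p = 0.834), a 2.05-fold higher level, and it rests on about 10450 fragments. It stayed between 0.89 and 1.14 over the 18 alternatives.

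Other differences above vehicle were larger, and in several of these genes anti-PD-1 replicate 1 was far above the other tumors. Krt18, the keratin partner of Krt8, lay at 4.81, 0.35 and 0.694 FPKM with anti-PD-1 and 0.0922, 0.0926 and 0.211 FPKM with vehicle (2.42, SE 0.88, unadjusted p = 0.0281). Il24, a cytokine of the IL-10 family, lay at 5.56, 0.62 and 2.07 FPKM against 0.171, 0.514 and 0.326 FPKM (2.32, SE 0.74, unadjusted p = 0.0157). In both genes anti-PD-1 replicate 1 was more than 2-fold above the other treated tumors. Without it the difference was 1.40 for Krt18 and 1.60 for Il24. Il23a, the specific chain of IL-23, lay at 3.5, 1.17 and 1.63 FPKM against 0.38, 0.191 and 1.05 FPKM (1.87, SE 0.59, unadjusted p = 0.0157). Dynap (1.37, SE 0.56), the neuronal intermediate filament gene Prph (1.35, SE 0.53), the ribosomal protein pseudogene Rps2-ps10, whose reads may belong to its parent (1.28, SE 0.67), and Gm11714 (0.97, SE 0.33, about 97 fragments) were also among the 12 largest, as were Ppbp, Ly6c2, Lgals3bp and Chil3. Without anti-PD-1 replicate 1, Dynap differed by 0.68, Prph by 0.74, Ly6c2 by 0.77 and Chil3 by 0.63.

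**Figure D4:**
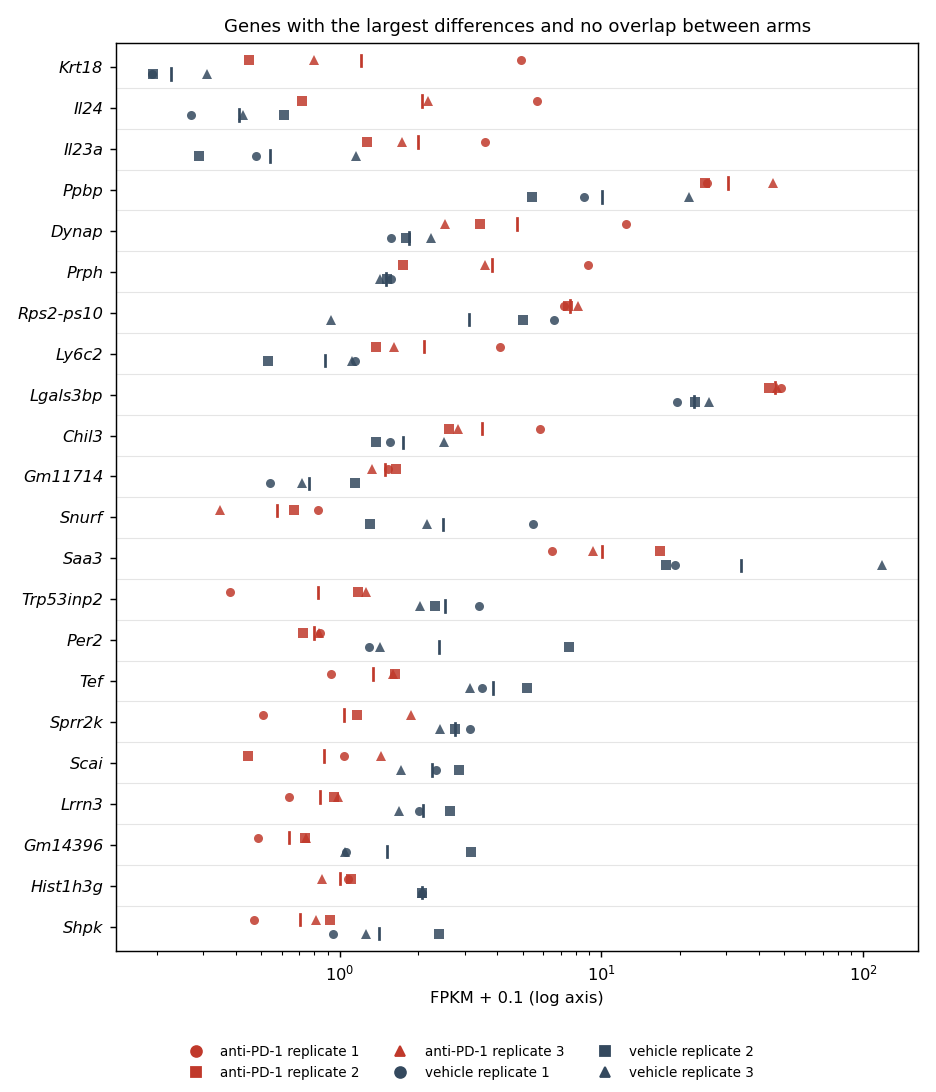
FPKM + 0.1 on a log axis of 11 of the 12 genes with the largest differences above vehicle and 11 of the 12 with the largest below, among genes whose arms did not overlap, with anti-PD-1 tumors in red, vehicle tumors in blue-gray, a symbol for each replicate number and a tick at the geometric mean. For Krt18, Il24, Dynap and Prph anti-PD-1 replicate 1 (circle) stands far to the right of the other red symbols, whereas for Lgals3bp the 3 red symbols lie together at 43.5 to 48.4 FPKM.

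Of the 12 largest differences below vehicle, Per2 and Tef have been given. Snurf, which shares its transcript with Snrpn, had the largest difference (-2.11, SE 0.57, unadjusted p = 0.00774), but it rests on about 37 fragments. Saa3, an acute phase protein of inflamed tissue, lay at 6.4, 16.7 and 9.15 FPKM with anti-PD-1 and 19, 17.5 and 118 FPKM with vehicle, a difference of -1.76 (SE 0.74, unadjusted p = 0.0492) that was -0.87 without vehicle replicate 3. Trp53inp2, a factor of autophagy, lay at 0.281, 1.07 and 1.16 FPKM against 3.31, 2.22 and 1.93 FPKM (-1.61, SE 0.49, unadjusted p = 0.0128). Lrrn3, a leucine-rich repeat membrane protein, lay at 0.542, 0.848 and 0.883 FPKM against 1.91, 2.55 and 1.58 FPKM (-1.30, SE 0.28, unadjusted p = 0.00238). In both genes anti-PD-1 replicate 1 was the lowest tumor. Scai (-1.37, SE 0.45), Sprr2k (-1.41, SE 0.45), Gm14396 (-1.24, SE 0.49), Shpk, a sugar kinase (-1.0, SE 0.44), and the replication-dependent histone gene Hist1h3g, one of many close copies at about 79.4 fragments (-1.04, SE 0.20), were also among the 12.

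Whether the antibody acted alike in palbociclib-treated tumors was compared in the other 6 tumors, which share no sample with the first comparison. Between the combination and palbociclib alone, 0 of 11065 genes (0.00%) passed the adjusted threshold in either direction (smallest adjusted p = 0.0809), with 271 higher (2.45%) and 594 lower (5.37%) at an unadjusted p under 0.05, and the arms did not overlap for 593 genes higher (5.36%) and 963 lower (8.70%). Across genes, which are not independent replicates, the 2 effects of the antibody had a Pearson r of 0.08 and the same sign for 53.9%. Type I interferon-stimulated genes lay on opposite sides in the 2 comparisons. With palbociclib their median was -0.79, and 32 of 42 (76.2%, against 5.37% of all genes) were lower with the antibody at an unadjusted p under 0.05. Their summed level was 918, 851 and 775 FPKM with anti-PD-1 and 765, 640 and 798 FPKM with vehicle. It was 1610, 1108 and 1984 FPKM with palbociclib and 962, 1036 and 986 FPKM with the combination. The palbociclib tumors were thus the highest, and each combination tumor lay above each anti-PD-1 tumor. Palbociclib and combination tumors also differed in other tissue, with fat genes at 1332 FPKM in combination replicate 1 and 543 FPKM in palbociclib replicate 1, skin genes at 512 FPKM in palbociclib replicate 2, and muscle genes at 290 FPKM in palbociclib replicate 3 and 264 FPKM in combination replicate 2, and the part of these in the result was not tested. The difference of the 2 effects had a median of 1.08 over the 42 genes, and 33 had an unadjusted p under 0.05 in that direction, against 3.39% of all genes, with 0 past the adjusted threshold. Clock genes had medians of -0.61 without palbociclib and -0.24 with it, and 2 of 13 (15.4%, against 5.37% of all genes) were lower with the antibody in its presence at an unadjusted p under 0.05.

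**Figure D5:**
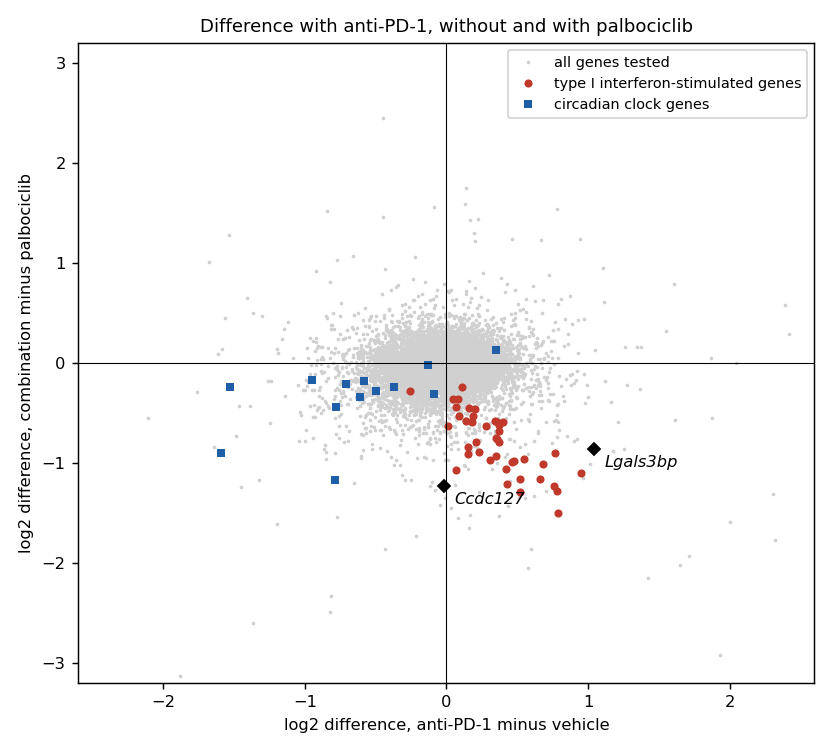
Log2 differences of each gene with the antibody, without palbociclib (x axis, anti-PD-1 minus vehicle) and with palbociclib (y axis, combination minus palbociclib), for all genes (gray), type I interferon-stimulated genes (red circles), clock genes (blue squares) and the 2 genes named by diamonds, with 7 genes outside the axes. All but 1 of the 42 interferon-stimulated genes lie to the lower right of the crossing lines, with Lgals3bp, and all but 1 of the 13 clock genes in the lower left.

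The difference between the 2 effects was tested over all 12 tumors, and 2 genes (0.0181%) passed, both with a higher anti-PD-1 effect without palbociclib than with it. At an unadjusted p under 0.05 there were 375 genes in that direction (3.39%) and 301 in the other (2.72%). For Lgals3bp the antibody went with a higher level without palbociclib, as above, and with a lower level in its presence, at 37.4, 44.6 and 50.4 FPKM with the combination and 92.2, 64.5 and 85.2 FPKM with palbociclib alone (-0.86, SE 0.17). The difference of effects was 1.90 (SE 0.22, adjusted p = 0.033). For Ccdc127, a gene for a coiled-coil protein, the antibody made no separation without palbociclib, at 6.5, 5.96 and 6.5 FPKM against 7.21, 6.07 and 5.95 FPKM (-0.02, SE 0.13), and the arms did not overlap with it, at 2.95, 2.54 and 2.71 FPKM with the combination and 7.04, 6.3 and 6.29 FPKM with palbociclib (-1.23, SE 0.10, adjusted p = 0.0809). The difference of effects was 1.21 (SE 0.15, adjusted p = 0.033). Leaving out 1 of the 12 tumors left the difference between 1.79 and 2.05 for Lgals3bp and between 1.16 and 1.30 for Ccdc127, but both genes passed together in none of these 12 fits. Lgals3bp passed without palbociclib replicate 2, together with Oasl2 (1.75, adjusted p = 0.0177), Ccdc127 passed without vehicle replicate 1, and 0 genes passed in the other 10.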

How the data were processed

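Total RNA of 12 tumors was sequenced as Illumina libraries. The authors deposited FPKM per gene and tumor, and HISAT2 and GRCm38 (mm10) are named in the submitters' processing notes, with versions, counting tool and annotation not given in the sources used here. No strand setting is stated, so overlapping or antisense genes, and near-identical copies, may share reads. Whole counts could not be recovered from FPKM, and no count test was run. Each file held 34745 entries, of which 67 repeated a symbol and the one with the highest mean was kept, and 27 symbols shaped like dates were left as they are. Positions came from GENCODE M21 (94.4% of symbols matched) and promoters from RefSeq, both on GRCm38.

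Genes averaging 1 FPKM or more in the 6 tumors entered limma (3.58.1, R 4.3.3) as log2(FPKM + 0.1) values (1 mean per arm, eBayes with a trend, Benjamini-Hochberg adjustment over 11065 genes, threshold 0.05). The same fit was made for the combination against palbociclib, and over 12 tumors for the difference between both effects. The fit was run on simulated data to check the size of the estimated change. The share of changed genes it recovers at the adjusted threshold is not reported here. Tables and figures used Python 3.11.15, numpy 2.4.6, pandas 2.3.3, scipy 1.17.1 and matplotlib 3.10.9. The 43 gene lists (845 symbols), the genes compared and the tests were chosen with earlier results of these data known. Lists are described by counts and medians, without a test. Named genes are Pdcd1, Cd274 and Pdcd1lg2, the 12 largest differences in each direction among genes whose arms did not overlap, genes past the adjusted threshold, and the 2 to 4 members of a described list with the highest mean. Of these, 2 genes are not reported here. The other genes named were chosen after their values were seen.

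Replicate numbers come from the labels. The deviations of same-numbered tumors from their arm's mean, over genes, correlated at 0.508, 0.15 and 0.297 between the 2 arms. Anti-PD-1 replicate 2 with vehicle replicate 3 gave 0.197, and anti-PD-1 replicate 3 with vehicle replicate 2 gave 0.149. Pairs of replicate 1 with another number ran from -0.446 to -0.193. These correlations do not settle whether the numbers pair the tumors, so the replicate block is given only as an alternative. Depth was estimated at 15400000 to 20300000 fragments per tumor, so that short genes near 1 FPKM rest on few fragments. As alternatives, the pseudocount was set to 1 or 0.01, the filter to 0.1, to 5 or to none, and the rest were rescaling to TPM, median-ratio scaling, quantile normalization, no trend, a replicate block, a fit on 12 tumors and leaving out each tumor. Leaving out replicate 1 of both arms was added after seeing the data.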

Additional observations from a re-analysis of the deposited data

Results flagged for a closer look

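For 2 genes the difference with anti-PD-1 without palbociclib and that with palbociclib were unequal by limma's test of the difference between them over 12 tumors. Lgals3bp had a difference of effects of 1.90 on the log2 scale (SE 0.22, adjusted p = 0.033), with 3 of 3 anti-PD-1 tumors above the vehicle tumors and 3 of 3 combination tumors below the palbociclib tumors. Ccdc127 had a difference of effects of 1.21 (SE 0.15, adjusted p = 0.033), with overlapping arms without palbociclib and 3 of 3 combination tumors below the palbociclib tumors with it. Each passed in 1 of the 12 fits that left out 1 tumor.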

How the results depend on the processing

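No alternative brought a gene past the adjusted threshold between anti-PD-1 and vehicle, where the smallest adjusted p was 0.0601, without anti-PD-1 replicate 2. At an unadjusted p under 0.05 there were 477 genes, of which 298 lower, and 882 with no filter (521 lower), 964 with the replicate block (596 lower) and 1085 with all 12 tumors (653 lower). With a filter at 5 there were 300 genes, of which 162 lower, and there 480 genes lay below vehicle without overlap. The higher count was 282 after median-ratio scaling. The lower count was 190 after quantile normalization. Leaving out 1 tumor gave 237 to 675 genes, with 237 without vehicle replicate 2, 251 without anti-PD-1 replicate 1 and the highest without vehicle replicate 3. The median of interferon-stimulated genes ran from 0.18 to 0.40 when 1 tumor was left out, and their members at an unadjusted p under 0.05 from 4 to 14, with 5 in the fit of all 12 tumors and 2 without replicate 1 of both arms. For clock genes the members were 3 with a filter at 5, which leaves fewer genes, and 3 to 7 when 1 tumor was left out. With palbociclib the count past the adjusted threshold was 0 to 1 when 1 tumor was left out, the 1 being Fam168b without palbociclib replicate 1 (2.17, adjusted p = 0.00481, named after its value was seen), and for the difference of effects it was 0 to 2. The replicate block changed no call past the adjusted threshold. The cause of these shifts was not tested.

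Of 90 genes examined, 19 reversed in 42 of 1591 gene and alternative pairs, none with an unadjusted p under 0.05 in the comparison as reported, and Lcp2, at 0.00, had no direction to keep (-0.22 to 0.2 when 1 tumor was left out). Ccdc127 was 0.01 after median-ratio scaling and 0.02 after quantile normalization, and with that normalization Rrm2 was -0.03 and Spp1 -0.01. Without replicate 1 of both arms Ccdc127 was 0.05, Gbp2 0.10, Lgmn -0.05, Ier3 0.01 and Vim 0.02. When 1 tumor was left out, differences ran from -0.07 to 0.07 for Ccdc127, -0.11 to 0.14 for Bst2, -1.3 to 0.12 for Bhlhe40, -0.1 to 0.14 for Rrm2, -0.39 to 0.25 for Gbp2, -0.35 to 0.23 for Socs3, -0.2 to 0.38 for Lgmn, -0.93 to 0.04 for Ctss, -0.04 to 0.39 for Pvr, -0.25 to 0.16 for Thy1, -0.48 to 1.59 for Gzmf, -0.18 to 1.32 for Gzmd, -0.87 to 0.37 for Lyz2, -0.2 to 0.38 for Spp1, -0.28 to 1.76 for S100a9, -1.05 to 0.49 for Cxcl1, -0.77 to 0.5 for Ier3, -0.16 to 0.11 for Vim and -1.52 to 0.29 for Cd74. Depth limits genes near 1 FPKM, and 3 tumors per arm leave a median SE of 0.18 on the log2 scale.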

Other observations

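Red cell and mast cell genes varied between single tumors of an arm. The 7 erythroid genes summed to 142, 171 and 666 FPKM with anti-PD-1 and 290, 237 and 105 FPKM with vehicle, so anti-PD-1 replicate 3 was the highest. The 9 mast cell and basophil genes summed to 10.8, 5.86 and 6.24 FPKM with anti-PD-1 and 27.6, 3.23 and 10.9 FPKM with vehicle, highest in vehicle replicate 1. Of the 11065 genes, 56 (0.506%) lay above vehicle with the antibody alone and below palbociclib with the combination, without overlap in either comparison, and 9 of these were type I interferon-stimulated genes (21.4% of the 42). The opposite pattern held 38 genes (0.343%) and 0 of the 42.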
